A study of Rattus norvegicus with 12 samples.

Results

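Cell cycle and mitosis genes were followed in cardiomyocytes of newborn rat ventricles under pulsatile stretch, on Agilent gene expression arrays. Of 41 genes on the list (Cdk1 stands on the array under its older name Cdc2), 40 had a probe under their symbol, and all 40 were among the 16127 genes and other named features tested. They comprised 7 regulators of G1 and of entry into S phase, 11 S-phase genes and 22 genes of G2 and mitosis. Mki67, a protein of dividing nuclei, had no probe under that symbol and has no value here. The cells were unstretched, or under pulsatile biaxial stretch to 20% elongation that lasted 2, 6 or 24 h. Each of these 4 groups had 3 arrays, which the labels call biological replicates. Whether these were separate cell isolations is not given, so p-values measure the spread between these cultures. All groups grew on collagen-coated silicone membranes in medium with serum for 24 h before stretch, and no culture time is given for the controls, so time in culture and time under stretch cannot be told apart. The same 3 control arrays serve all 3 stretch times.

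A dividing cell passes G1, copies its DNA in S phase, and after G2 separates the copies in mitosis. Cyclins bound to cyclin-dependent kinases (CDKs) drive each step. E2F factors turn on S-phase genes, and genes of G2 and mitosis are turned on later in the same cycle. Rat cardiomyocytes leave the cell cycle soon after birth, and primary cultures of them usually also hold non-myocytes that can divide. RNA of such a culture is a sum over its cells, so fewer dividing cells and less of an RNA per cell cannot be told apart.

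Promoters of the mitotic and S-phase classes had 1 motif in common and differed in the shares of others. RefSeq promoter windows (GRCr8, 250 bases before to 50 after the gene start) were found for 31 of the 41 genes and were searched on both strands. Those of G2 and mitosis genes include the window of Mki67, which has no expression value. CCAAT, the box bound by NF-Y, was in 16 of 20 windows of G2 and mitosis genes (80%) and in 6 of 8 windows of S-phase genes (75%), against 37.5% of all 33469 promoter windows. TTTGAA, the cell cycle genes homology region (CHR) bound by MuvB complexes, was in 13 of 20 windows of G2 and mitosis genes (65%) and in 1 of 8 of S-phase genes, against 18.3% of all windows. Both motifs together were in 12 of the 20 G2 and mitosis windows (60%), against 7.41% of all. An E2F site, TTTGGCGC or TTTCGCGC, was in 6 of 8 S-phase windows (75%), in 1 of 20 G2 and mitosis windows (that of Cdk1) and in 0.792% of all windows. In the 3 windows of G1 regulators CCAAT occurred once, in Cdk2, and the other motifs, as spelled so far, not at all. With TTCGAA also counted as a CHR, the motif was in 13 of 20 G2 and mitosis windows, in 3 of 8 S-phase windows (37.5%) and in 19.7% of all. With GCGGGAA also counted as an E2F site, the motif was in 7 of 8 S-phase, 2 of 20 G2 and mitosis and 1 of 3 G1 windows and in 4.91% of all. These shares describe letters in a window and say nothing of binding in these cells. The windows below belong to the members of both classes with the largest 24 h change that had an entry and a match, and show how the motifs are laid out; capitals mark matches on either strand.
Birc5 (chr10:103571896-103572195, plus strand): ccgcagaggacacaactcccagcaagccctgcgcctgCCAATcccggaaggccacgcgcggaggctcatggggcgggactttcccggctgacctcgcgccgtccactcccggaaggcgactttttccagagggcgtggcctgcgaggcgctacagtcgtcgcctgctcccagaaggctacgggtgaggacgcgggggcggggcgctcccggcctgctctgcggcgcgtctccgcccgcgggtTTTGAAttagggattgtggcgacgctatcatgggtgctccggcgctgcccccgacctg
Cenpf (chr13:103760837-103761136, minus strand): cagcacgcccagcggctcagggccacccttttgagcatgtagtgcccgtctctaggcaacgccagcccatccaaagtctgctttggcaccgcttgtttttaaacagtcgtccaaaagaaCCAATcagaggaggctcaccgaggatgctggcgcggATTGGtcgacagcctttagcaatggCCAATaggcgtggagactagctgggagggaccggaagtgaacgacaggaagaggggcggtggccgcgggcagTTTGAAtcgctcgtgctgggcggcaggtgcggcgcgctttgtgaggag
Top2a (chr10:84473044-84473343, minus strand): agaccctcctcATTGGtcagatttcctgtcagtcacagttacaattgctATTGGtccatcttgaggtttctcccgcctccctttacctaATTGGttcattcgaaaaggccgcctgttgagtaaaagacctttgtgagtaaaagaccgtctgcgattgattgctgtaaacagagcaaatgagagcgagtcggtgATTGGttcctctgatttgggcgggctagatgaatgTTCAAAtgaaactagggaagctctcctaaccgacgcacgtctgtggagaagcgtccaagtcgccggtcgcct
Rrm1 (chr1:166235654-166235953, plus strand): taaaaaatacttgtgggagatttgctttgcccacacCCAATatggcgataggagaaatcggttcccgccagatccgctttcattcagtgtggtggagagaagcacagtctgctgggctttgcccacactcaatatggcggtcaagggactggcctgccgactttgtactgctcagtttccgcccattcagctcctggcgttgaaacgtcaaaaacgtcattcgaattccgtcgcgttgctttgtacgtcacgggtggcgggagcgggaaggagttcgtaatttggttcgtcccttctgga
Mcm7 (chr12:22163129-22163428, minus strand): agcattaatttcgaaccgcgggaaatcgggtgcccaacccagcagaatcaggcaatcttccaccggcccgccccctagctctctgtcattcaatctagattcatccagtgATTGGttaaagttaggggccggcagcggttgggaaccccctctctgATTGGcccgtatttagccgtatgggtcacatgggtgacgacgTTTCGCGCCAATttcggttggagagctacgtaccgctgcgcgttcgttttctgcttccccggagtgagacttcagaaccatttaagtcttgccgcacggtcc
In Cenpf 3 CCAAT boxes lie ahead of the CHR, and in Top2a 4 boxes, all on the opposite strand, lie ahead of a CHR on that strand. Birc5 has 1 CCAAT box and 1 CHR, Rrm1 a CCAAT box alone. In Mcm7 the E2F match runs into a CCAAT box, so that the matches share bases.

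Between 64.7% and 70.6% of the 58717 spots on an array were well above background and 0 were saturated. All 40 members were well above background on all 12 arrays. Values below are log2 intensities minus the array's own 75th percentile, so that 0 is that percentile. They compare arrays for 1 gene, never 1 gene with another. Changes are differences of group means on this log2 scale with the standard error of the model (n = 3 arrays per group), and a member was called at an adjusted p below 0.05 by limma, with adjustment over all features. Arrays lay on 2 slides: slide 1 held all control and 2 h arrays and 6 h replicates 1 and 2, and slide 2 held 6 h replicate 3 and all 24 h arrays. On this scale the median change of all features was 0.002 at 2 h, -0.052 at 6 h and -0.090 at 24 h. Scaling by array medians put that median at 0.040, 0.044 and 0.11, and scaling by spike-in spots, which carry RNA added in fixed amounts, at 0.20, 0.40 and 0.38. Time cannot be told apart from slide at 24 h except through the 6 h arrays.

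After 2 h of stretch the mitotic genes stood lower as a class. Of 22 G2 and mitosis genes 11 fell and 0 rose, and 21 of 22 had a change below 0, with a median of -0.23, while 0 of 11 S-phase genes were called. Of all features 5.36% were called lower and 2.75% higher at 2 h. The fallen genes were the cyclins Ccna2, Ccnb1 and Ccnb2, the spindle checkpoint kinases Bub1 and Ttk, the kinetochore proteins Cenpe and Cenpf, the spindle motors Kif11 and Kif23, and the spindle assembly proteins Nusap1 and Tpx2. For 19 of the 22 genes every stretched array lay below every control array, which held for 15.1% of all features. Scaled by spike-in spots the class median stayed below 0, at -0.031, but 0 of its genes passed, also at an unadjusted p below 0.05, while 0.304% of all features were called lower and 0.992% higher. Its distance from the median of all features, -0.23, cannot differ between these scales, since each array is shifted by 1 constant. The count of 12 members called at 2 h (with Ccne1, a G1 gene) became 6 on leaving out control replicate 3 or either of the first 2 arrays of the 2 h group, and 8 on slide 1 alone, all lower and 7 of them among the 12.

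**Figure D1:**
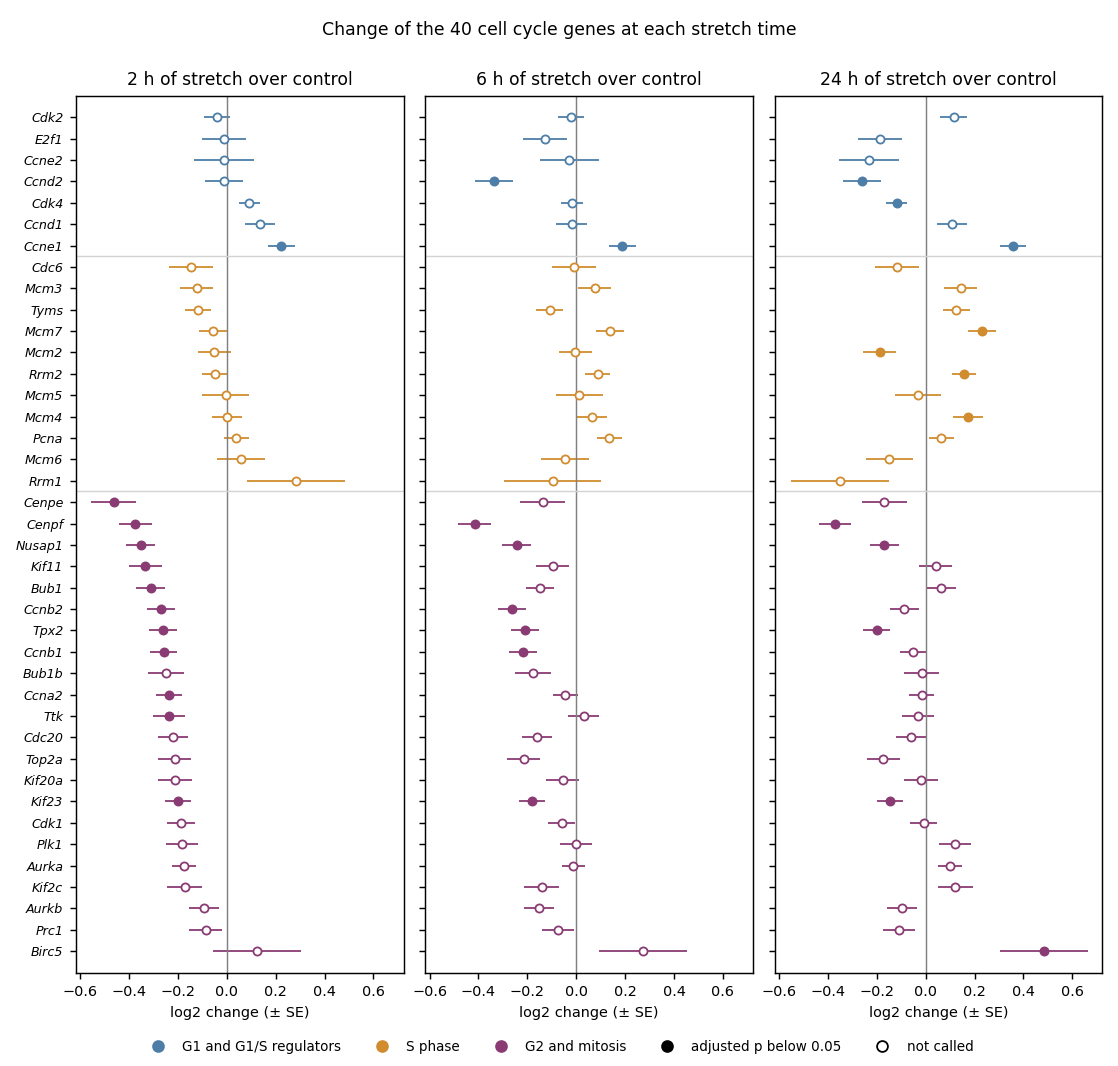
Log2 change (± SE, n = 3 arrays per group) of each of the 40 members at 2, 6 and 24 h of stretch over control, genes down the page by class and filled points for those called. At 2 h the G2 and mitosis genes lie left of 0 apart from Birc5, and by 24 h they straddle it; on the spike-in scale most would lie right of 0 at 6 and 24 h.

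Nusap1, a microtubule-bundling protein of the spindle, was the mitotic gene with the lowest adjusted p at 2 h (probe at chr3:106164775-106164834, rn4). Nusap1 read -0.59, -0.58 and -0.60 on control arrays, -0.97, -0.96 and -0.89 at 2 h, -0.93, -0.80 and -0.78 at 6 h and -0.70, -0.87 and -0.70 at 24 h. No stretched array reached the control range at any time, and the change was -0.35 ± 0.059 (adjusted p = 0.0073) at 2 h, -0.24 ± 0.059 (adjusted p = 0.0201) at 6 h and -0.17 ± 0.059 (adjusted p = 0.0371) at 24 h. Cenpf, a large kinetochore protein that builds up in G2, was low at all 3 times (probe at chr13:105921172-105921231, rn4). Cenpf read -2.09, -1.94 and -2.03 on control arrays, -2.44, -2.33 and -2.40 at 2 h, -2.49, -2.51 and -2.31 at 6 h and -2.45, -2.40 and -2.31 at 24 h. The stretched arrays lay below every control array at each time, with changes of -0.37 ± 0.066 (adjusted p = 0.00926), -0.42 ± 0.066 (adjusted p = 0.00343) and -0.37 ± 0.066 (adjusted p = 0.00123) at 2, 6 and 24 h. Tpx2, which activates Aurora A on the spindle, was low at all 3 times as well. Tpx2 read -1.89, -1.93 and -1.89 on control arrays, -2.13, -2.21 and -2.16 at 2 h, -2.04, -2.12 and -2.17 at 6 h and -2.003, -2.12 and -2.19 at 24 h. Its changes were -0.26 ± 0.056 (adjusted p = 0.0197), -0.21 ± 0.056 (adjusted p = 0.0305) and -0.20 ± 0.056 (adjusted p = 0.0139), again with no overlap at any time. Kif23, a motor of the central spindle, was the other mitotic gene called at all 3 times, at -0.20 ± 0.053 (adjusted p = 0.0426), -0.18 ± 0.053 (adjusted p = 0.0433) and -0.14 ± 0.053 (adjusted p = 0.0435). Under spike-in scaling none of these 4 genes was called lower at any time. With each array left out in turn Cenpf stayed called at 2, 6 and 24 h, while its second, dimmer probe was not called at any time. Nusap1 stayed called at 2 h, and was lost at 6 h without 6 h replicate 1, control replicate 2 or control replicate 3 (adjusted p between 0.0529 and 0.0871) and at 24 h without 24 h replicate 2, control replicate 1, control replicate 2 or control replicate 3 (adjusted p between 0.0708 and 0.136). Tpx2 was lost at 2 h without 2 h replicate 2, control replicate 1, control replicate 2 or control replicate 3 (adjusted p between 0.052 and 0.0617), at 6 h on leaving out any of 5 single arrays (adjusted p between 0.064 and 0.102) and at 24 h without 24 h replicate 3 (adjusted p = 0.0577).

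A second set was called lower at 2 h only. The difference between 6 h and 2 h was itself not called for Cenpe, Kif11 or Bub1 (limma, adjusted p = 0.0546, 0.0543 and 0.102). Cenpe, a kinetochore motor that aligns chromosomes, had the largest fall of any member at 2 h (probe at chr2:232750578-232750637, rn4). Cenpe read -4.59, -4.47 and -4.59 on control arrays, -5.15, -4.85 and -5.05 at 2 h, -4.76, -4.57 and -4.74 at 6 h and -4.63, -4.88 and -4.66 at 24 h. Every 2 h array lay below the control arrays, the 6 h arrays overlapped them, and the 24 h arrays lay just below them. The change was -0.46 ± 0.093 (adjusted p = 0.0156) at 2 h, -0.14 ± 0.093 (adjusted p = 0.355) at 6 h and -0.17 ± 0.093 (adjusted p = 0.161) at 24 h. Kif11, the motor that pushes spindle poles apart, likewise fell at 2 h. Kif11 read -1.40, -1.499 and -1.52 on control arrays, -1.85, -1.82 and -1.75 at 2 h, -1.63, -1.62 and -1.46 at 6 h and -1.53, -1.33 and -1.44 at 24 h. Its change was -0.33 ± 0.068 (adjusted p = 0.0161) at 2 h, -0.097 ± 0.068 (adjusted p = 0.373) at 6 h and 0.041 ± 0.068 (adjusted p = 0.645) at 24 h, and only the 2 h arrays stood clear of the controls. Bub1, which holds anaphase until chromosomes attach, was low on the 2 h and 6 h arrays and not at 24 h. Bub1 read -0.30, -0.25 and -0.22 on control arrays, -0.69, -0.56 and -0.47 at 2 h, -0.46, -0.40 and -0.37 at 6 h and -0.19, -0.23 and -0.16 at 24 h. All 2 h and 6 h arrays lay below the controls and the 24 h arrays lay near or above their upper end. The change was -0.31 ± 0.058 (adjusted p = 0.011) at 2 h, -0.15 ± 0.058 (adjusted p = 0.114) at 6 h and 0.064 ± 0.058 (adjusted p = 0.388) at 24 h. The 2 h call on Bub1 held with each array left out. That on Cenpe was lost without 2 h replicate 1 or control replicate 2 (adjusted p between 0.0508 and 0.0583), and that on Kif11 without 2 h replicate 1 or control replicate 1 (adjusted p between 0.0508 and 0.051). The Cenpe call was also lost with normexp background correction, the deposited series matrix, spike-in scaling, no filter on dim probes or a 2-group fit.

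Both B-type cyclins were called lower at 2 and 6 h. Every array of Ccnb2, cyclin B2, lay below the controls at these times. Ccnb2 read -1.16, -1.20 and -1.05 on control arrays, -1.43, -1.36 and -1.43 at 2 h, -1.37, -1.47 and -1.35 at 6 h and -1.24, -1.28 and -1.14 at 24 h. Its change was -0.27 ± 0.058 (adjusted p = 0.0198) at 2 h, -0.26 ± 0.058 (adjusted p = 0.0138) at 6 h and -0.087 ± 0.058 (adjusted p = 0.242) at 24 h, and the 24 h arrays overlapped the controls. The 2 h call was lost without 2 h replicate 1, 2 h replicate 3 or control replicate 3 (adjusted p between 0.0579 and 0.0681) and the 6 h call without control replicate 3 (adjusted p = 0.0544). Ccnb1, cyclin B1, changed by -0.26 ± 0.057 (adjusted p = 0.0227), -0.22 ± 0.057 (adjusted p = 0.0302) and -0.050 ± 0.057 (adjusted p = 0.5) at the same times. Cyclin A2 was called at 2 h only, with changes of -0.24 ± 0.052 (adjusted p = 0.0222), -0.045 ± 0.052 (adjusted p = 0.612) and -0.017 ± 0.052 (adjusted p = 0.814). Cdk1, the kinase these cyclins bind, was lower on every 2 h array than on any control array but missed the threshold. Cdk1 read 2.46, 2.34 and 2.40 on control arrays, 2.13, 2.26 and 2.23 at 2 h, 2.27, 2.35 and 2.39 at 6 h and 2.38, 2.34 and 2.45 at 24 h. The change of Cdk1 was -0.19 ± 0.056 (adjusted p = 0.0671) at 2 h, -0.060 ± 0.056 (adjusted p = 0.521) at 6 h and -0.008 ± 0.056 (adjusted p = 0.919) at 24 h.

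**Figure D2:**
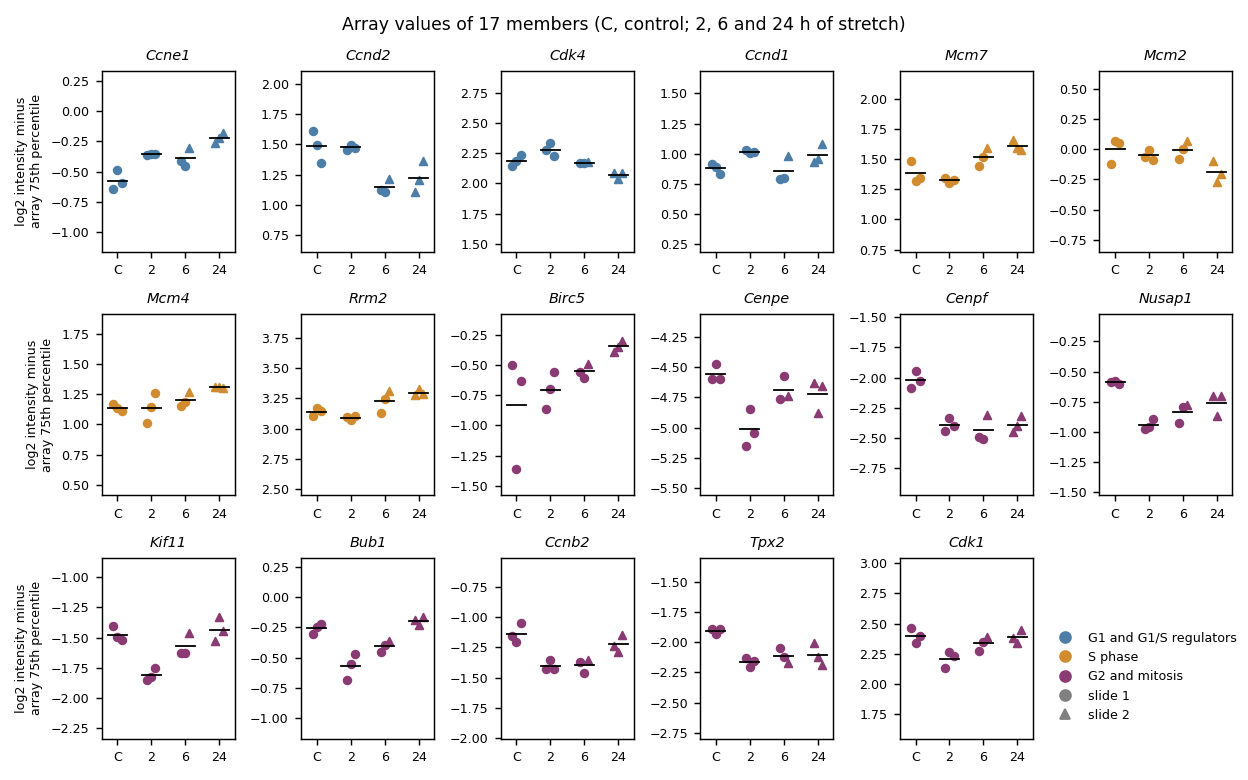
Log2 intensity minus the array's 75th percentile for 17 members on all 12 arrays, control, 2 h, 6 h and 24 h from left to right; lines are group means, circles slide 1 and triangles slide 2, and every panel spans the same height. Nusap1, Cenpf and Tpx2 stay below their controls throughout, and Cenpe, Kif11 and Bub1 are lowest at 2 h.

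Values of the remaining mitotic genes at 2 h were as follows. Ttk, another checkpoint kinase, fell by 0.24 ± 0.064 (adjusted p = 0.0475). Aurka, an Aurora kinase of the spindle poles, just missed the threshold with -0.17 ± 0.048 (adjusted p = 0.0511). Cdc20, an activator of the anaphase-promoting complex, did so with -0.22 ± 0.061 (adjusted p = 0.0524). Bub1b, Kif20a, Plk1, Kif2c, Aurkb and Prc1 had 2 h changes between -0.25 and -0.087. Top2a, the topoisomerase that untangles sister DNA, was not called at any time with -0.21 ± 0.068 (adjusted p = 0.0844) at 2 h, -0.21 ± 0.068 (adjusted p = 0.0592) at 6 h and -0.17 ± 0.068 (adjusted p = 0.0573) at 24 h, though it was called lower at all 3 times when slide was a block (-0.21, -0.29, -0.39).

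At 6 h fewer mitotic genes were low. Of the 22 genes 6 fell and 0 rose (Ccnb1, Ccnb2, Cenpf, Kif23, Nusap1 and Tpx2, each also called at 2 h), the median was -0.145, and 11 had all stretched arrays below all controls. Over all features 10.3% were called lower, 4.28% higher, and 25.5% had every stretched array below every control array. Of all 40 members 7 were lower and 1 higher, so the share called lower was closer to the background than at 2 h. Without control replicate 3, 2 members were called, and 3 to 4 without control replicate 1 or 2 or 6 h replicate 1 or 2. On slide 1 alone, 5 members were called, all lower (Ccnd2, Ccnb2, Cenpf, Nusap1 and Top2a). The class median turned positive, 0.31, under spike-in scaling, where 2 genes of the class were higher and 0 lower, beside 33.4% and 0.347% of all features.

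After 24 h the class as a whole stood near its controls on the scale used here, in the fit without slide. Cenpf, Kif23, Nusap1 and Tpx2 were lower and Birc5 was higher, and the median of the 22 genes was -0.041. In this comparison 30.9% of all features were called lower and 14.9% higher, so 5 of 22 is a smaller share than the background. For comparison 39.0% of all features and 7 of the 22 genes had every stretched array below every control array. The median turned to 0.16 when arrays were scaled by their median and to 0.42 by spike-in spots, with 10 and 7 of 22 genes called higher and 0 lower. Under the same scalings 36.9% and 38.6% of all features were called higher, and 14.4% and 3.35% lower. With slide as a block the median of the 22 genes at 24 h was -0.105, beside -0.074 for all features. Only 3 members were called in that fit, all lower: Cenpf, Top2a and Mcm6 (-0.56, -0.39 and -0.48). Of the 16127 features 1519 were called lower there and 503 higher. Without control replicate 2 or 3, 24 h replicate 1, 2 or 3, or 6 h replicate 2, the count of 12 members called at 24 h fell to between 5 and 7.

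Birc5, survivin, is a subunit of the chromosomal passenger complex that also inhibits apoptosis. On the scale used here it was the only mitotic member called higher than control at any time. Birc5 read -0.50, -1.36 and -0.63 on control arrays, -0.86, -0.70 and -0.56 at 2 h, -0.56, -0.61 and -0.49 at 6 h and -0.39, -0.35 and -0.30 at 24 h. Control replicate 2 lay far below the other controls, and all 24 h arrays lay above every control array. The change was 0.12 ± 0.18 (adjusted p = 0.727) at 2 h, 0.28 ± 0.18 (adjusted p = 0.341) at 6 h and 0.48 ± 0.18 (adjusted p = 0.048) at 24 h. Without that control array the 24 h change was 0.22 (adjusted p = 0.0762), and the call was lost in 14 of 23 alternatives.

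The called S-phase genes were all called at 24 h. At 2 h and at 6 h 0 of the 11 passed limma's test (0 and 2 had an unadjusted p below 0.05, both higher at 6 h), with medians of -0.050 and 0.013 on the scale used here and of 0.15 and 0.47 under spike-in scaling, where 0 and 6 genes were called higher, beside 0.992% and 33.4% of all features. At 24 h Mcm4, Mcm7 and Rrm2 rose, Mcm2 fell, and the median was 0.064. Of all features 14.9% were called higher and 30.9% lower there, so 4 called of 11 is a smaller share than the background. The 24 h median was -0.010 where slide was a block and -0.024 with the mean of all kept probes of a gene.

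Mcm7, a subunit of the MCM helicase that unwinds DNA at replication forks, had the largest called change from control of the S-phase genes (probe at chr12:17607251-17607310, rn4). Mcm7 read 1.48, 1.32 and 1.34 on control arrays, 1.35, 1.30 and 1.32 at 2 h, 1.44, 1.52 and 1.60 at 6 h and 1.66, 1.59 and 1.58 at 24 h. All 24 h arrays lay above the controls. The change was -0.055 ± 0.057 (adjusted p = 0.608) at 2 h, 0.14 ± 0.057 (adjusted p = 0.139) at 6 h and 0.23 ± 0.057 (adjusted p = 0.00807) at 24 h, and the slide block gave 0.11 (adjusted p = 0.512) at 24 h. The 24 h call on Mcm7 held with each array left out. Rrm2, the subunit of ribonucleotide reductase that rises in S phase, also rose at 24 h. Rrm2 read 3.11, 3.17 and 3.15 on control arrays, 3.09, 3.07 and 3.11 at 2 h, 3.13, 3.24 and 3.31 at 6 h and 3.28, 3.32 and 3.29 at 24 h. Its changes were -0.050 ± 0.050 (adjusted p = 0.599), 0.087 ± 0.050 (adjusted p = 0.279) and 0.16 ± 0.050 (adjusted p = 0.0268) at 2, 6 and 24 h, without overlap at the last time, though a second probe changed the other way, and the 24 h call was lost without 24 h replicate 2, 24 h replicate 3, control replicate 1 or control replicate 3 (adjusted p between 0.0571 and 0.078).

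Mcm4 and Mcm2 sit in the same helicase but were called in opposite directions. Mcm4 read 1.17, 1.13 and 1.11 on control arrays, 1.01, 1.14 and 1.26 at 2 h, 1.16, 1.18 and 1.27 at 6 h and 1.31, 1.31 and 1.30 at 24 h. Mcm4 changed by 0.17 ± 0.061 (adjusted p = 0.0394) at 24 h, with no overlap with the controls, although its second probe changed the other way. Mcm2 read -0.12, 0.071 and 0.052 on control arrays, -0.060, -0.006 and -0.088 at 2 h, -0.080, -0.001 and 0.067 at 6 h and -0.094, -0.27 and -0.20 at 24 h. Mcm2 changed by -0.19 ± 0.068 (adjusted p = 0.0417) at 24 h, where replicate 1 lay within the control range, and its sign turned under array median and spike-in scaling. Calls were lost for Mcm4 on leaving out any of 7 single arrays (adjusted p between 0.052 and 0.108) and for Mcm2 on leaving out any of 7 single arrays (adjusted p between 0.05 and 0.14). The other helicase subunits Mcm3, Mcm5 and Mcm6 were not called, at 0.14 ± 0.067 (adjusted p = 0.107), -0.031 ± 0.095 (adjusted p = 0.809) and -0.15 ± 0.097 (adjusted p = 0.232).

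Among the other S-phase genes no comparison with control passed. Pcna, the sliding clamp of DNA polymerase, changed by 0.14 ± 0.052 (adjusted p = 0.105) at 6 h, where all its stretched arrays lay above the controls, and by 0.064 ± 0.052 (adjusted p = 0.34) at 24 h. Tyms, which makes thymidylate, changed by -0.12 ± 0.054 (adjusted p = 0.219) at 2 h and 0.13 ± 0.054 (adjusted p = 0.0776) at 24 h, and Cdc6, which loads the helicase, by -0.12 ± 0.090 (adjusted p = 0.319) at 24 h. Rrm1, the large subunit of ribonucleotide reductase, had the widest error of any member, at 0.28 ± 0.20 (adjusted p = 0.431) at 2 h and -0.35 ± 0.20 (adjusted p = 0.176) at 24 h.

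The G1 regulators moved in both directions. Cyclin E1 rose at every time, cyclin D2 fell at 6 and 24 h, and Cdk4 fell at 24 h. The class medians were -0.011, -0.021 and -0.12 at 2, 6 and 24 h, and the last turned to 0.078 by array median, 0.036 by quantile and 0.35 by spike-in scaling. Ccne1, cyclin E1, activates Cdk2 at the start of S phase (probe at chr1:90568197-90568256, rn4). Ccne1 read -0.65, -0.49 and -0.60 on control arrays, -0.36, -0.36 and -0.35 at 2 h, -0.41, -0.46 and -0.30 at 6 h and -0.26, -0.22 and -0.18 at 24 h. Every stretched array lay above every control array. The change was 0.22 ± 0.055 (adjusted p = 0.0345) at 2 h, 0.19 ± 0.055 (adjusted p = 0.045) at 6 h and 0.36 ± 0.055 (adjusted p = 0.000485) at 24 h, and the slide block gave 0.23 (adjusted p = 0.145) at 24 h. The 24 h call held with each array left out, while the 2 h call was lost on leaving out any of 6 single arrays (adjusted p between 0.0522 and 0.1) and the 6 h call on leaving out any of 10 single arrays (adjusted p between 0.0531 and 0.147). The 24 h change was above 0 under all 23 alternatives, between 0.23 and 0.82.

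Ccnd2, cyclin D2, a partner of Cdk4 and Cdk6 in early G1, was called at 6 and 24 h. Ccnd2 read 1.61, 1.496 and 1.35 on control arrays, 1.45, 1.497 and 1.47 at 2 h, 1.12, 1.11 and 1.22 at 6 h and 1.11, 1.21 and 1.36 at 24 h. At 2 h the arrays lay within the control range, at 6 h all were below it, and at 24 h replicate 3 overlapped it. The change was -0.011 ± 0.077 (adjusted p = 0.952) at 2 h, -0.34 ± 0.077 (adjusted p = 0.0165) at 6 h and -0.26 ± 0.077 (adjusted p = 0.0183) at 24 h. These calls were lost at 6 h without 6 h replicate 1, 6 h replicate 2 or control replicate 2 (adjusted p between 0.0514 and 0.0623) and at 24 h without 24 h replicate 1, 24 h replicate 2 or control replicate 1 (adjusted p between 0.0519 and 0.0711). Cdk4 read 2.15, 2.18 and 2.24 on control arrays, 2.28, 2.33 and 2.23 at 2 h, 2.17, 2.17 and 2.17 at 6 h and 2.09, 2.04 and 2.08 at 24 h. Cdk4 changed by -0.12 ± 0.044 (adjusted p = 0.046) at 24 h, a call lost on leaving out any of 9 single arrays (adjusted p between 0.0511 and 0.156), and the sign of that small change turned under array median and spike-in scaling. For Ccnd1, cyclin D1, the gene of this class known best as a target of growth signals, no comparison passed. Ccnd1 read 0.92, 0.89 and 0.83 on control arrays, 1.03, 1.01 and 1.01 at 2 h, 0.80, 0.80 and 0.98 at 6 h and 0.93, 0.95 and 1.08 at 24 h. All 2 h and 24 h arrays of Ccnd1 lay above the controls, with 0.14 ± 0.062 (adjusted p = 0.213) at 2 h and 0.11 ± 0.062 (adjusted p = 0.175) at 24 h. Cdk2, Ccne2 and E2f1 were not called at any time, and their 24 h changes were 0.11 ± 0.054 (adjusted p = 0.108), -0.23 ± 0.12 (adjusted p = 0.143) and -0.18 ± 0.090 (adjusted p = 0.116).

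Classes were also set against each other within each array, a difference in which a scaling constant cancels. For each array the median deviation of the S-phase genes from their control means was taken from that of the G2 and mitosis genes. The difference was 0.037, -0.028 and -0.013 on control arrays and -0.20, -0.15 and -0.20 at 2 h. It was -0.11, -0.17 and -0.25 at 6 h and -0.090, -0.12 and -0.050 at 24 h. All 9 stretched arrays lay below all 3 control arrays. All control arrays were on slide 1, so arrays of slide 2 were set against controls of the other slide only. The deviations are from the means of these same 3 control arrays, which holds the control values near 0. At 2 h the mitotic class medians were -0.25, -0.22 and -0.22 and those of S phase -0.048, -0.069 and -0.019. On the 6 h array of slide 2 the mitotic median was -0.078 and that of S phase 0.17.

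**Figure D3:**
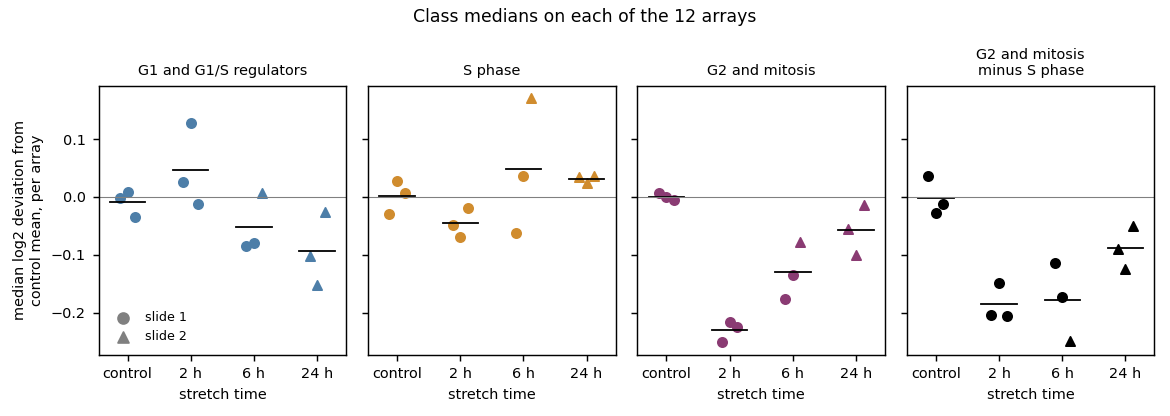
Median log2 deviation of each class from its control means on each array, and, at the right, G2 and mitosis minus S phase; groups run from control to 24 h, lines are group means, circles slide 1 and triangles slide 2. Mitotic medians are lowest at 2 h, and the difference between classes is negative on all 9 stretched arrays.

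Limma's moderated F test, over the 3 differences from control, called 24 of the 40 members, against 50.4% of all features. By class these were 17 of 22 G2 and mitosis genes, 4 of 11 S-phase genes and 3 of 7 G1 regulators. From 2 h to 6 h Ccna2 and Ttk were higher at 6 h and Ccnd2 lower, where 3.08% of all features were called higher and 5.82% lower. From 6 h to 24 h Ccne1, Tyms, Bub1 and Kif2c were higher at 24 h and 0 members lower, where 8.76% of all features were called higher and 14.2% lower. On slide 1 alone limma called 0 members for 6 h over 2 h (8 at an unadjusted p below 0.05), with 2 arrays at 6 h. On slide 2 the 6 h group is 1 array, which leaves the 24 h over 6 h comparison there with little power, and 0 members were called (4 at an unadjusted p below 0.05). In both comparisons 19 of the 22 mitotic genes had a change above 0, with medians of 0.089 and 0.066.

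Other genes of the pathway, which were not on the list, were counted by class. Of 54 further mitotic genes listed 46 were tested. Of these 18 fell and 0 rose at 2 h, with a median of -0.22, beside -0.23 for the 22 members and 0.002 for all features. Of all features 5.36%, 10.3% and 30.9% were called lower at 2, 6 and 24 h, and 2.75%, 4.28% and 14.9% higher. The largest called fall was in Gtse1 at -0.67 ± 0.15 (adjusted p = 0.0255), a microtubule protein of G2. Next were Kif15 at -0.48 ± 0.094 (adjusted p = 0.0134), a spindle motor, and Aspm at -0.43 ± 0.050 (adjusted p = 0.00246), a spindle pole protein. At 6 h 8 fell and 1 rose, with a median of -0.135. The largest called fall there was in Cenpa at -0.40 ± 0.065 (adjusted p = 0.00357), the histone of centromeres. Next were Pttg1 at -0.34 ± 0.084 (adjusted p = 0.0218), securin, and Dlgap5 at -0.30 ± 0.061 (adjusted p = 0.0106), a spindle protein. At 24 h 4 fell and 7 rose, with a median of -0.032, so the share higher was near that of all features and the share lower was below it. Ccnf at -0.48 ± 0.073 (adjusted p = 0.000412), cyclin F, fell, while Ckap2 at 0.26 ± 0.051 (adjusted p = 0.00222) and Wee1 at 0.22 ± 0.052 (adjusted p = 0.00549), the kinase that holds Cdk1 inactive, rose. By spike-in scaling 0 were called lower at any time (3 at an unadjusted p below 0.05 at 2 h), and 21 of 46 were called higher at 24 h, where 38.6% of all features were. With slide as a block 0 of the 46 were called higher and 2 lower at 24 h, beside 503 and 1519 of the 16127 features. Their median was then -0.172, beside -0.074 for all features.

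Of 39 further replication genes 1 fell at 2 h, Pold1 at -0.28 ± 0.072 (adjusted p = 0.0408), the catalytic subunit of DNA polymerase delta. At 6 h 1 rose and 4 fell, and at 24 h 9 rose and 7 fell, beside 4.28% higher and 10.3% lower of all features at 6 h and 14.9% and 30.9% at 24 h. The class had medians of -0.065, 0.005 and -0.011 at 2, 6 and 24 h. Named by size they were Pola2 at -0.49 ± 0.12 (adjusted p = 0.0185), a subunit of the polymerase that starts new strands, Orc1 at 0.26 ± 0.069 (adjusted p = 0.0302), which marks origins, and Tk1 at -0.26 ± 0.056 (adjusted p = 0.0128), thymidine kinase, at 6 h. At 24 h they were Pola2 at -0.63 ± 0.12 (adjusted p = 0.00141), Rpa1 at -0.35 ± 0.075 (adjusted p = 0.00318), which coats single-stranded DNA, and Tk1 at -0.30 ± 0.056 (adjusted p = 0.00137). By spike-in scaling 18 of 39 rose at 6 h and 20 at 24 h, and 0 fell, where 33.4% and 38.6% of all features were called higher. With slide as a block 0 of the 39 rose and 1 fell at 24 h.

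Of 8 genes for CDK inhibitors and a related phosphatase 1 was called at 2 h, Cdkn3 at -0.46 ± 0.11 (adjusted p = 0.0353), the phosphatase that acts on CDKs, and 1 at 6 h, Cdkn2d at -0.28 ± 0.083 (adjusted p = 0.0478). Of all features 5.36% were called lower at 2 h and 10.3% at 6 h, and 2.75% and 4.28% higher. At 24 h 2 of the 8 rose and 4 fell, beside 14.9% higher and 30.9% lower of all features. The rises were in Cdkn2a at 0.98 ± 0.21 (adjusted p = 0.00398) and Cdkn2b at 0.43 ± 0.072 (adjusted p = 0.000793), which encode inhibitors of Cdk4 and Cdk6, and Cdkn2c at -0.38 ± 0.093 (adjusted p = 0.00712) was the largest fall. With slide as a block limma called 0 of the 8 at 24 h (1 at an unadjusted p below 0.05, higher). By array median and by spike-in scaling 2 of the 8 were called higher and 0 lower at 24 h. Of all features 36.9% and 38.6% were called higher under these scalings, and 14.4% and 3.35% lower. Of 16 genes of the Rb, E2F and DREAM group, which hold down or turn on cell cycle genes, 1 rose at 2 h. That held for 2.75% of all features. At 6 h 4 rose and 2 fell, where 4.28% of all features rose and 10.3% fell. At 24 h 6 rose and 6 fell, where 14.9% of all features rose and 30.9% fell. With slide as a block 3 of the 16 were called higher and 2 lower at 24 h, beside 503 and 1519 of the 16127 features. By array median scaling 9 were higher and 3 lower at 24 h, and by spike-in scaling 8 and 0. Myc, a growth regulator counted with them, rose at all times, at 0.47 ± 0.078 (adjusted p = 0.0073), 0.51 ± 0.078 (adjusted p = 0.00289) and 1.07 ± 0.078 (adjusted p = 3.86e-06), also with slide as a block at 24 h (0.98, adjusted p = 0.00327). Lin52, a MuvB subunit, rose at 0.42 ± 0.089 (adjusted p = 0.0119) and 0.42 ± 0.089 (adjusted p = 0.00339), and Tfdp2, an E2F partner, fell at -0.31 ± 0.061 (adjusted p = 0.00813) and -0.42 ± 0.061 (adjusted p = 0.000337) (6 and 24 h each). Of 14 genes of the anaphase-promoting complex, which destroys cyclin B, Cdc23 at -0.25 ± 0.060 (adjusted p = 0.0307) fell at 2 h, 0 were called at 6 h, and Anapc10 at 0.26 ± 0.075 (adjusted p = 0.0159) and Cdc27 at 0.19 ± 0.050 (adjusted p = 0.00941) rose at 24 h. With slide as a block 0 of the 14 passed limma's test at 24 h, also at an unadjusted p below 0.05.

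Markers of the cells in these cultures were read beside the members. Cardiomyocyte markers were present, with a summed level, in multiples of the array's 75th percentile, of 922 to 975 on control arrays, 935 to 1030 at 2 h, 880 to 925 at 6 h and 779 to 844 at 24 h. Of 12 markers 0 were called at 2 or 6 h by limma (3 and 1 at an unadjusted p below 0.05), and at 24 h 2 rose, among them Nppa at 0.69 ± 0.061 (adjusted p = 1.17e-05), and 9 fell, among them Ttn at -0.64 ± 0.10 (adjusted p = 0.000609). At 2 h 1 of 12 fibroblast markers fell (Pdgfra at -0.34 ± 0.058 (adjusted p = 0.00855)), 0 of 10 endothelial and 0 of 9 smooth muscle and pericyte markers were called (1 and 2 at an unadjusted p below 0.05), and 1 of 10 macrophage markers rose (Emr1 at 0.59 ± 0.084 (adjusted p = 0.00372)). The summed fibroblast level was 170 to 182 on control arrays, 165 to 181 at 2 h, 157 to 175 at 6 h and 123 to 143 at 24 h. The endothelial sum was 4.06 to 4.28 on control arrays, 3.88 to 4.06 at 2 h, 3.47 to 3.8 at 6 h and 2.95 to 3.19 at 24 h. For the 22 mitotic members the sum was 19.8 to 20.6 on control arrays, 16.9 to 18 at 2 h, 18.4 to 19.8 at 6 h and 19.7 to 20.6 at 24 h.

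At 24 h most markers were lower, those of cardiomyocytes (median -0.32) as well as those of non-myocytes, where 30.9% of all features were called lower. All 10 macrophage markers tested fell (probes of Mrc1 and Cd163 were too dim to be kept), with a median of -1.37 and summed levels of 20.5 to 21.2 on control arrays, 21.8 to 25.4 at 2 h, 19.3 to 21.1 at 6 h and 7.54 to 8.52 at 24 h. Of fibroblast markers 9 of 12 fell (median -0.34), of endothelial markers 7 of 10 (median -0.54), and of smooth muscle and pericyte markers 6 of 9 fell and 1 rose (median -0.44). With spike-in scaling 9 macrophage markers were still lower, 2 fibroblast and 2 cardiomyocyte markers were higher and 0 lower, and 0 endothelial markers were called. Of smooth muscle and pericyte markers 3 were then higher and 1 lower, beside 38.6% and 3.35% of all features. The smooth muscle and pericyte sum was 36.5 to 36.9 on control arrays, 35.3 to 41.3 at 2 h, 34.3 to 34.5 at 6 h and 30.5 to 32.2 at 24 h. At 6 h 0 of 10 endothelial markers passed limma's test, but all 10 had a change below 0 (5 at an unadjusted p below 0.05), with a median of -0.25 beside -0.145 for the mitotic members. Of smooth muscle and pericyte markers 2 of 9 fell at 6 h and all 9 had a change below 0 (median -0.16), of macrophage markers 2 of 10 fell and all 10 were below 0 (median -0.11), and of fibroblast markers 1 of 12 fell and 8 were below 0 (median -0.030). The part of cell makeup in the members' changes was not tested.

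Probes of 1 gene did not always give the same value. Second probes pointed the same way at 2 h in Ccna2 (-0.23, adjusted p = 0.0487) and in Cenpf (-0.35, adjusted p = 0.0615), and a second probe of Kif2c was called lower at 2 h (-0.23, adjusted p = 0.0278). That of Cenpf was not called at 6 h (-0.14, adjusted p = 0.383) or 24 h (-0.24, adjusted p = 0.0747). A second probe of Top2a gave -0.007 (adjusted p = 0.991), 0.27 (adjusted p = 0.45) and -0.38 (adjusted p = 0.187) at 2, 6 and 24 h. In Mcm4 and Rrm2, called higher at 24 h, the second and dimmer probe gave a change of the other sign that was not called (-0.22, adjusted p = 0.174, and -0.14, adjusted p = 0.0647). A second probe of Mcm2 was not called at 24 h (-0.11, adjusted p = 0.288), one of E2f1 was called lower at 24 h (-0.28, adjusted p = 0.0408), and one of Bub1 was too dim to be kept.

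Class medians moved against 0 with the scale. At 2 h the mitotic median was -0.23 by the 75th percentile, -0.22 by quantile, -0.19 by array median and -0.031 by spike-in scaling, and the S-phase median -0.050, -0.053, -0.012 and 0.15. At 24 h the mitotic median was -0.041, 0.003, 0.16 and 0.42, and the S-phase median 0.064, 0.080, 0.26 and 0.53. Relative to the median of all features on the scale used here, the mitotic class stood at -0.23, -0.093 and 0.049 at 2, 6 and 24 h and the S-phase class at -0.052, 0.066 and 0.15. With slide as a block the 24 h distances were -0.031 for the mitotic class and 0.065 for S phase.

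**Figure D4:**
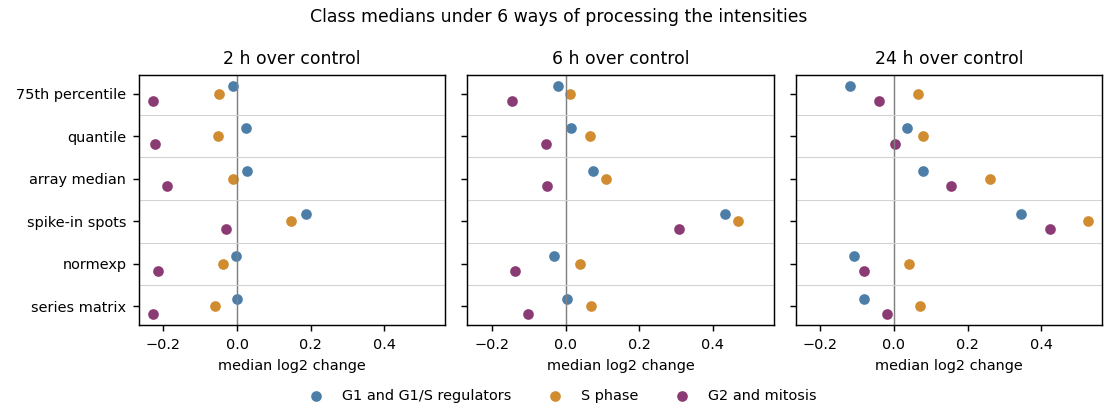
Median log2 change of each class at 2, 6 and 24 h of stretch over control, under 6 ways of processing the intensities, listed down the page. The mitotic median is the lowest of the 3 classes at 2 and 6 h in all 6, while its side of 0 at 6 and 24 h depends on the scale.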

How the data were processed

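Cy3-labelled RNA of 12 cultures was hybridised to 1-colour Agilent arrays, 1 culture each. Image analysis used Agilent's Feature Extraction software (11.0.1.1 per the file headers, 10.7.3.1 per the submitters' processing notes). Its processed signal is an intensity with background subtracted and spatial trends removed, and not scaled between arrays, per the file headers. The deposited mean and local background signals are uncorrected intensities, and the deposited flags of each spot (other values) are 0 or 1. A series matrix, also deposited, gives intensities for 28902 probes, scaled in a way not stated (column medians 7.02 to 7.14 on the log2 scale), and served only as an alternative. Of its columns 0 were left unused.

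Spots marked as outliers were dropped (224 to 359 per array), log2 values were taken minus the array's 75th percentile (a signal of 1138 to 1672), and spots of a probe were averaged. Probes well above background on all 3 arrays of a group were kept (18649 of 30367), named by the file's gene name, with the brightest probe per name giving 16127 features. Members had 51 probes, of which 50 were kept. Limma 3.58.1 in R 4.3.3 (data.table package 1.17.8, jsonlite 2.0.0 and statmod 1.5.0) fitted the 4 group means, and p-values were adjusted by Benjamini-Hochberg over all features, two-sided. The number of arrays limits the precision. The fit was tested on simulated data.

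Members and lists were chosen with earlier results of these data known. All 12 values are given for up to 8 mitotic, 5 S-phase and 5 G1 genes with the largest called change, and for Ccnd1 and Cdk1. Of each pathway list, up to 3 called genes with the largest change are named at each time, and of marker lists up to 2. A member in the text outside these rules is given by change and error. Alternatives covered scaling (array median, quantile, 350 spike-in spots), normexp background, the series matrix, the probe filter and rule, slide, replicate number, 2-group fits and each array left out. Promoter windows are those of RefSeq on GRCr8, and no genome was used. The array's gene names are those of its design.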

Additional observations from a re-analysis of the deposited data

Results flagged for a closer look

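For 7 members the changes from control at neighbouring times differed by limma's test of that difference, with standard errors of the model and n = 3 arrays per group. At 6 h over 2 h cyclin D2 (Ccnd2) was lower by -0.325 ± 0.077 (adjusted p = 0.0309), while cyclin A2 (Ccna2) was higher by 0.192 ± 0.052 (adjusted p = 0.0471) and the checkpoint kinase Ttk by 0.267 ± 0.064 (adjusted p = 0.0315). At 24 h over 6 h cyclin E1 (Ccne1) was higher by 0.17 ± 0.055 (adjusted p = 0.0488), Tyms by 0.235 ± 0.054 (adjusted p = 0.0106), Bub1 by 0.212 ± 0.058 (adjusted p = 0.0239) and the motor Kif2c by 0.263 ± 0.071 (adjusted p = 0.0225). With slide as a block all 7 kept their direction and none was called: Ccnd2 stood at -0.358, Ccna2 at 0.165 and Ttk at 0.268 for 6 h over 2 h, and Ccne1 at 0.082, Tyms at 0.261, Bub1 at 0.172 and Kif2c at 0.174 for 24 h over 6 h (adjusted p between 0.0581 and 0.591). The arrays of 1 slide gave the same sizes, also without a call. These fits compare 2 arrays with 3 on slide 1 and 1 array with 3 on slide 2, where the lone 6 h array is assumed to vary like the 24 h arrays, so a lost call there says little. With spike-in scaling all 7 kept their direction and none was called, with Ccnd2 at -0.068.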

How the results depend on the processing

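Counts of members called under other settings are given here where they moved by over 1.5 times, and the cause was not tested unless the setting itself uses fewer arrays. At 2 h over control 12 members became 0 with spike-in scaling, 7 with normexp background, 3 without a filter on dim probes, 3 with only the 2 groups in the fit, and 6 to 12 with 1 array left out. At 6 h over control 8 became 5 with array median scaling, quantile normalization, normexp background, the series matrix, slide 1 alone, the replicate block or only the 2 groups, 2 without a filter, and 2 to 7 with 1 array left out. At 24 h over control 12 became 19 with array median scaling, 5 without a filter, 3 with slide as a block, and 5 to 12 with 1 array left out. The split of calls moved with scale: at 24 h 5 higher and 7 lower became 19 and 0 with array median scaling, 16 and 0 with spike-in scaling, 8 and 3 with quantile normalization and 4 and 11 with normexp background, and at 6 h 1 higher and 7 lower became 4 and 1 with array median scaling and 9 and 0 with spike-in scaling. Calls over all features moved too: at 24 h 36.9% were higher and 14.4% lower with array median scaling, 38.6% and 3.35% with spike-in scaling, 21.6% and 19.6% with quantile normalization and 13.5% and 41.7% with normexp background, and at 6 h 11.8% and 4.67% with array median and 33.4% and 0.347% with spike-in scaling. For 6 h over 2 h 3 became 10 with array median scaling, 7 with quantile normalization, 6 with the series matrix, 1 with the replicate block or only the 2 groups, and 0 with spike-in scaling, normexp background, no filter, slide as a block or slide 1 alone. Leaving out 1 array gave 0 to 5. For 24 h over 6 h 4 became 17 with array median scaling, 2 with normexp background, 1 without a filter, and 0 with spike-in scaling, slide as a block or slide 2 alone, a setting chosen after seeing the data in which 6 h is 1 array. Leaving out 1 array gave 1 to 7. The F test's 24 became 11 with slide as a block and 18 to 24 with 1 array left out. Single changes turned sign at 6 h with spike-in scaling for Ccnb2 (0.194), Ccnd2 (0.119), Cenpf (0.039), Nusap1 (0.212) and Tpx2 (0.245). At 24 h they turned for Ccnd2 (0.204), Cdk4 (0.346), Cenpf (0.095), Mcm2 (0.277), Nusap1 (0.296) and Tpx2 (0.265) with spike-in scaling, for Cdk4 (0.078), Mcm2 (0.009) and Nusap1 (0.028) with array median scaling, and for Mcm4 (-0.024) with the mean of kept probes. Same-numbered arrays of different groups did not deviate together (r -0.113 to 0.088 over 18 pairs, against -0.208 to 0.214 for unlike numbers). With 3 arrays per group this cannot settle whether same-numbered cultures were paired, which the labels do not say. The replicate block left 9 calls at 2 h, 5 at 6 h, 8 at 24 h, 1 for 6 h over 2 h, 3 for 24 h over 6 h and 22 by the F test. A call at 24 h over control cannot be made within a slide. All members were well above background on all arrays.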
